A study of Mus musculus with 8 samples.

Results

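The Wnt module of the mouse trachea was compared here between old and young airway: the secreted Wnt ligands, their receptors, the proteins that modulate them and the core of the pathway inside the cell. Members were taken by symbol, as every gene named Wnt, Fzd, Sfrp, Dkk or Rspo followed by a digit, together with Lrp5, Lrp6, Axin1, Axin2, Lef1, Tcf7, Tcf7l1, Tcf7l2, Ctnnb1, Apc, Wif1, Lgr4, Lgr5, Lgr6, Znrf3 and Rnf43. This gave 57 of the 18172 genes measured, on 113 probe sets of the array. They comprise 19 ligands, 12 receptors and co-receptors, 9 secreted antagonists, 9 genes of the R-spondin arm, 4 genes of beta-catenin and its destruction complex and 3 TCF/LEF transcription factors. The remaining member, Fzd10os, is a transcript from the strand opposite Fzd10 and has no Wnt role assigned here. Of 57 protein-coding genes of the RefSeq annotation that match these names, 56 were measured. Tcf7 is not analysed here, as no probe set carried its symbol, alone or with others.

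Tracheas were cut at their distal end, with the carina, in 4 old mice aged 14 months and 4 young mice aged 2 months, and RNA of each mouse went onto 1 Affymetrix expression array. All 8 animals were C57Bl/6 females, and the labels name no allele and no treatment. Old mice carry the numbers 1, 2, 5 and 6 and young mice the numbers 3, 4, 7 and 8, and signals are listed in that order throughout. The design asks which transcripts differ between old and young airway. Whole tissue was extracted, so that each signal sums over epithelium, stroma, muscle, cartilage and immune cells, and fewer cells of a type cannot be told apart from less RNA per cell. The number of arrays limits the precision.

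Wnt proteins are secreted, lipid-modified ligands that bind Frizzled receptors and the co-receptors Lrp5 and Lrp6. In the canonical branch this stops the destruction complex of Axin and Apc from marking beta-catenin for breakdown, and beta-catenin then works with TCF/LEF factors in the nucleus. Other branches act on cell polarity without beta-catenin. R-spondins bind Lgr4, Lgr5 or Lgr6 and take away Znrf3 and Rnf43, ubiquitin ligases that otherwise clear Frizzled from the cell surface. In the developing mouse, Wnt signals pass between the epithelium and mesenchyme of the trachea and lung.

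A signal here is the array's brightness for a gene's brightest probe set, in arbitrary units on a linear scale after every array was scaled to the same mean. Signals can be compared between mice but not between genes. A difference is the log2 signal of old minus young mice with its standard error (SE, n = 4 each). It was tested with limma, and adjusted p-values are over all 18172 genes. Correlations of log2 signal between arrays lay between 0.951 and 0.958 within an age and between 0.947 and 0.952 across ages. In these tissues 41 members had a mean signal above 151, the median of all probe sets, and 16 lay at or below it. The median SD within an age was 0.16 on the log2 scale for the brighter members and 0.55 for the dimmer ones, so that the dim members could show large differences only.

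The ligand Wnt4 rose in old trachea, and no member fell at an adjusted p under 0.05. Of all genes, 0.517% passed that threshold, 0.341% with higher signal in old mice and 0.176% with lower. At an unadjusted p under 0.05, 15 of 57 members (26.3%) differed, 8 with higher and 7 with lower signal in old mice, against 14.5% of all genes. The signals of old and young mice did not overlap for 7 members (12.3%), against 10.1% of all genes. In every old mouse Wnt4, Rspo1, Sfrp2 and Fzd3 were above every young mouse, as were 4.95% of all genes, and Wnt5a, Tcf7l2 and Sfrp4 were below, as were 5.11%. Among the 41 brighter members these shares were 29.3% and 17.1%, against 16.4% and 12.7% of all genes above the same signal. The median difference of all members was -0.05, with 24 positive and 33 negative values, beside -0.005 for all genes. With a mouse left out, separation is easier for any gene. The count without overlap was then 12 without old mouse 2, 12 without old mouse 6, 16 without young mouse 7 and 11 without young mouse 8, where 13.3%, 14.8%, 15.8% and 14% of all genes did not overlap.

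**Figure D1:**
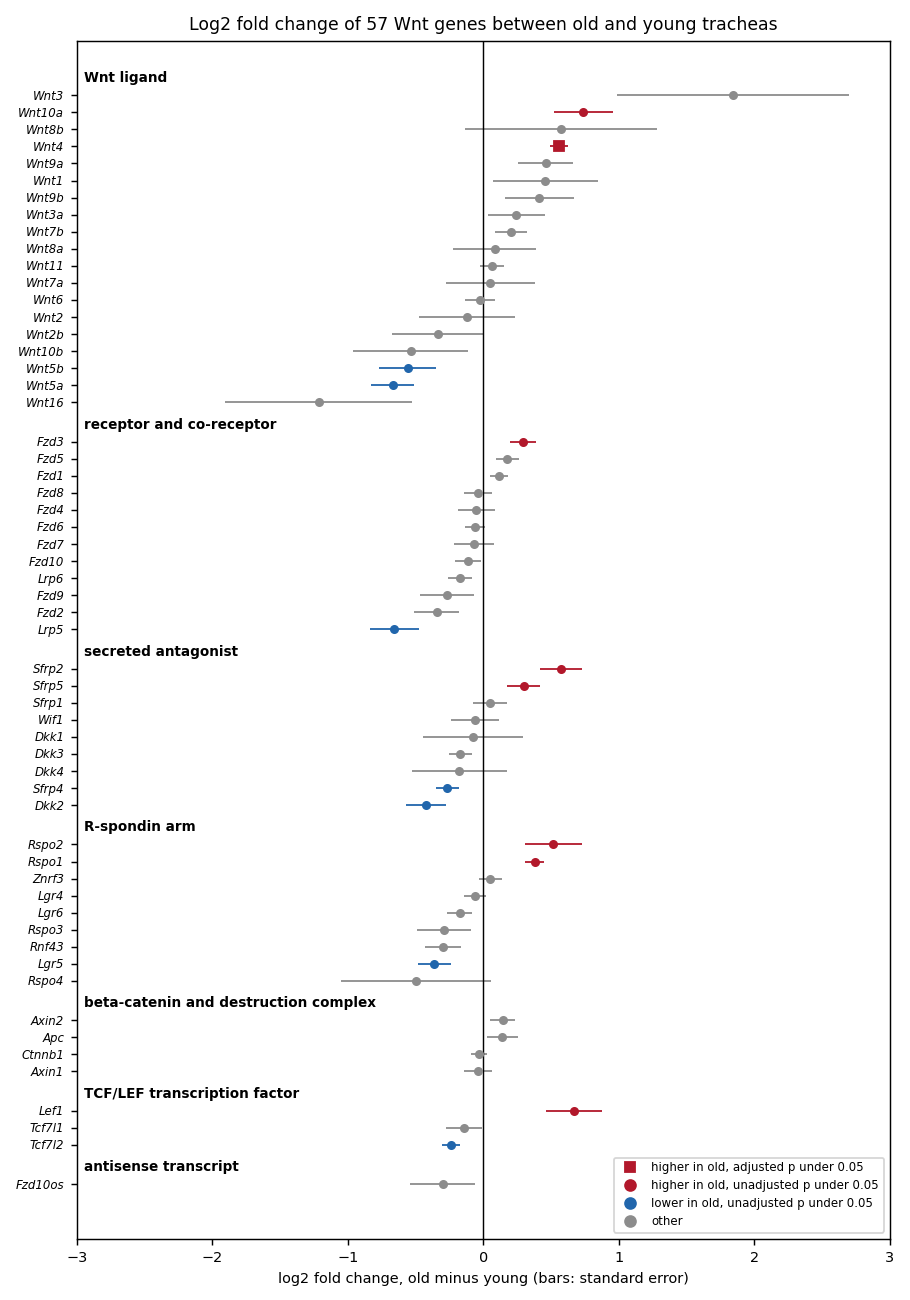
Log2 fold change of old minus young mice for the 57 Wnt genes, grouped by role from ligands at the top to transcription factors near the bottom, with bars for the standard error (4 old and 4 young mice). The square marks Wnt4 at 0.56, coloured circles mark the other 14 genes at an unadjusted p under 0.05, and the long bars of Wnt3, Wnt8b and Wnt16 belong to genes of low signal.

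Among the ligands, Wnt4, a signal between epithelium and mesenchyme in the mouse kidney and female reproductive tract, had signals of 1525, 1541, 1546 and 1431 in old mice and 1103, 967, 1013 and 1025 in young mice. The lowest old mouse was above the highest young mouse by more than the whole range of the young mice. The mean was 1511 ± 53.7 in old and 1027 ± 56.2 in young mice (SD, n = 4 each), a fold of 1.47 and a log2 difference of 0.56 (SE 0.068, adjusted p = 0.0307 by limma). The dimmer probe set of Wnt4 gave 739 ± 85.9 in old and 435 ± 20.2 in young mice, a log2 difference of 0.76, again with no overlap. The call is narrow. When any single mouse was left out, the log2 difference stayed between 0.53 and 0.59 but the adjusted p ranged from 0.0539 to 0.0943, while the genes called among all 18172 dropped to between 8 and 42, against 94 with every mouse. With the 4 lower mouse numbers set against the 4 higher as a block, the adjusted p of Wnt4 was 0.0501, and 49 genes were called in all. In a fit of all 45037 probe sets, neither probe set of Wnt4 passed, with adjusted p of 0.072 and 0.069.

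The bases before the transcription start of Wnt4 are shown because it is the only member called, beside those of Rspo1, the member with the next smallest p. Both are from the RefSeq annotation of GRCm38.p6, plus strand, 5′ to 3′, and end at the base before the start. Capitals mark the GC box, GGGCGG read on either strand.
Wnt4, chr4:137277385-137277634: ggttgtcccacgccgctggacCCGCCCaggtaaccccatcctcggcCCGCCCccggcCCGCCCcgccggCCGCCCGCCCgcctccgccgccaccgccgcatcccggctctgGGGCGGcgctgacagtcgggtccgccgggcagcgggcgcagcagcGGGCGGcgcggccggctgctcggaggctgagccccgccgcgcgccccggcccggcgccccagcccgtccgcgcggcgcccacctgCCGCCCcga
Rspo1, chr4:124986180-124986429: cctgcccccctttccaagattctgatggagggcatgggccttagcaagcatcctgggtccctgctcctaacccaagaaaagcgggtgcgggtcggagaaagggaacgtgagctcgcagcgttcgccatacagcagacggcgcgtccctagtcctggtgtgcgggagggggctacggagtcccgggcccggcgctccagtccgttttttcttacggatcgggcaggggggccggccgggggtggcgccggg
The Wnt4 stretch holds 8 GC boxes, some overlapping, and that of Rspo1 holds 0. Of 45 such windows for the 36 members found in the promoter table, 31 (68.9%) held a GC box, against 32.7% of 32851 windows of the same length over all genes. These counts describe letters only and were not set against the differences between ages.

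Wnt10a, a ligand of teeth and skin appendages, gave 312, 265, 276 and 163 in old mice and 139.7, 122, 159 and 178 in young mice. Old mouse 6 lay within the young range while the other old mice were above it. The log2 difference was 0.74 (SE 0.217, unadjusted p = 0.0103, adjusted p = 0.186). Wnt6, its direct neighbour on chromosome 1, differed by -0.03.

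Wnt5a and Wnt5b, close relatives that act mostly outside the beta-catenin branch, both had lower mean signals in old mice. Wnt5a, needed for outgrowth and airway patterning in the mouse embryo, measured 485, 324, 359 and 373 in old mice and 685, 588, 684 and 489 in young mice. The ages did not overlap, but old mouse 1 and young mouse 8 almost met. The log2 difference was -0.67 (SE 0.160, unadjusted p = 0.00343, adjusted p = 0.126), and it passed with an adjusted p of 0.0318 under a variance prior that follows signal, as did 2.6% of all genes. Of its 4 probe sets, the 3 brighter ones gave -0.67, -0.35 and -0.49, and the dimmest, at a mean signal of 65.9, gave 0.81. The mean over all 4 was -0.17 and did not pass an unadjusted p under 0.05. Wnt5b had 141, 106, 169 and 160.4 in old mice and 285, 219, 168 and 183 in young mice. Only young mouse 7 came within the old range, and the log2 difference was -0.56 (SE 0.209, unadjusted p = 0.0292). A dimmer probe set of Wnt5b gave -0.16, with an unadjusted p of 0.652 by limma in the fit of all probe sets. This dimmer one stands for Wnt5b when probe sets with names ending in _x_at or _s_at are left out.

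Wnt11, a ligand of the polarity branch and the second brightest probe set among the ligands, was 769.8, 804, 954 and 833 in old mice and 866, 747, 781 and 811 in young mice. These ranges overlapped, and the log2 difference was 0.07 (SE 0.090). The other 14 ligands ran from -1.22 for Wnt16 to 1.84 for Wnt3 on the log2 scale, none at an unadjusted p under 0.05. Both of those ends were dim genes with mean signals of 55.5 and 14.6. Wnt9a came closest, at 0.46 with an unadjusted p of 0.0548, with old mice from 509 to 548 and young mice from 259.5 to 518. Wnt7b, a ligand of lung epithelium, differed by 0.21 (SE 0.119).

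**Figure D2:**
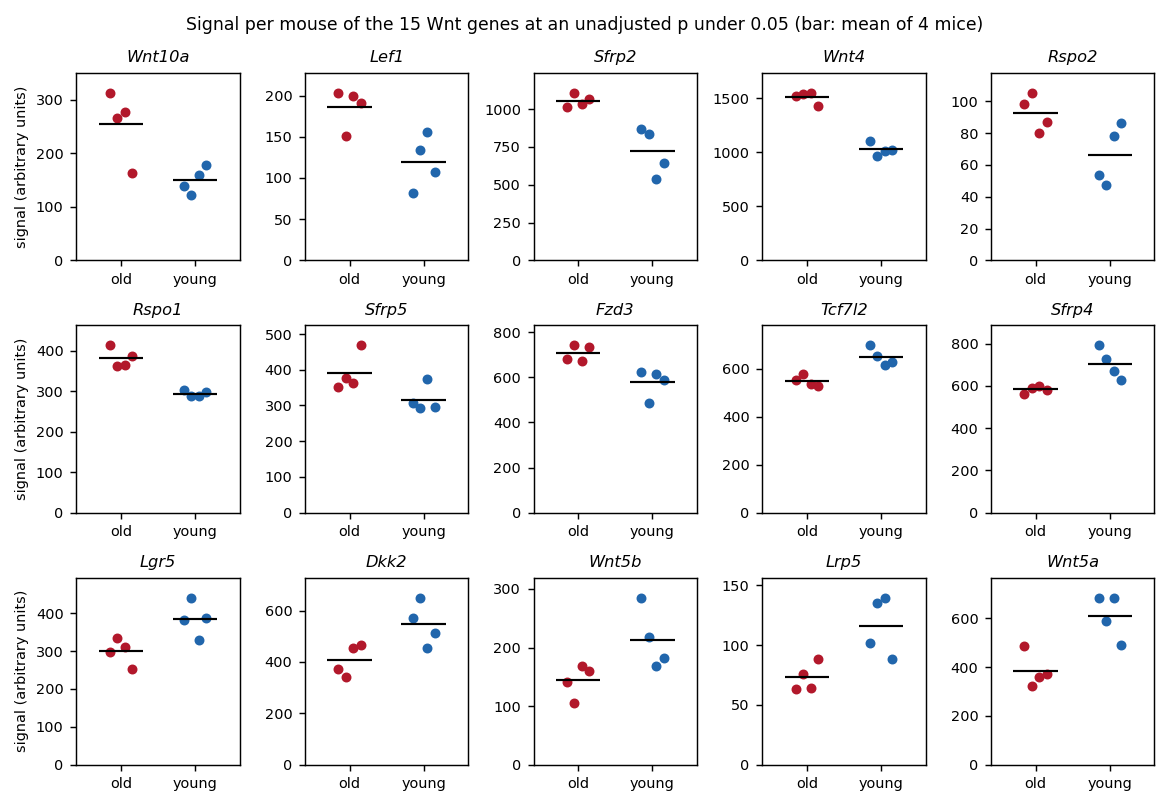
Signal per mouse in arbitrary units, on axes that start at 0, for the 15 Wnt genes at an unadjusted p under 0.05, ordered from the most positive to the most negative log2 difference. Points are mice, old on the left and young on the right, and bars are means of 4. Wnt4, Rspo1, Sfrp2 and Fzd3 have every old mouse above every young mouse, and Wnt5a, Tcf7l2 and Sfrp4 every old mouse below.

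Of the 12 receptors and co-receptors, 1 was above and 1 below its young level at an unadjusted p under 0.05 (16.7% in all, against 14.5% of all genes). Lrp5, a co-receptor best known for its part in bone mass, measured 63.1, 76.2, 64.3 and 88.7 in old mice and 102, 135, 139.7 and 88.7 in young mice. Old mouse 6 and young mouse 8 were at the same level, and all signals were below the array median. On the log2 scale the difference was -0.66 (SE 0.183, unadjusted p = 0.00759, adjusted p = 0.169). Lrp6, the related co-receptor, gave 2022, 1779, 1813 and 2141 in old mice and 2108, 2132, 2111 and 2377 in young mice. Only old mouse 6 reached the young range, and the log2 difference was -0.17 (SE 0.087, unadjusted p = 0.0836). A dimmer probe set of Lrp6, at a mean signal of 481 and still above the array median, overlapped between the ages and gave 0.02.

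Fzd3, a Frizzled that works in cell polarity and axon guidance, had signals of 679.8, 742, 672 and 735 in old mice and 623, 488, 616 and 589 in young mice, without overlap. The log2 difference was 0.29 (SE 0.097, unadjusted p = 0.0172, adjusted p = 0.228). It is carried by the brightest of 6 probe sets. The others ran from -1.24 to 0.21, and the mean over all 6 was -0.22, the opposite sign. Fzd1, the brightest probe set of the group, gave 4126, 4003, 4238 and 4305 in old mice and 3774, 3961, 4026 and 3637 in young mice. Young mouse 7 lay within the old range, and the log2 difference was 0.12 (SE 0.065, unadjusted p = 0.116).

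Fzd2 had 3 probe sets that all pointed the same way. These gave log2 differences of -0.35, -0.32 and -0.46 from the brightest to the dimmest. The dimmer ones reached an unadjusted p of 0.0242 and 0.033 in the fit of all probe sets, and the brightest, which stands for the gene, had 0.0714 over genes. The remaining 7 Frizzled genes lay between -0.27 for Fzd9 and 0.18 for Fzd5. Fzd10os differed by -0.30 (SE 0.240), and Fzd10 itself by -0.12 (SE 0.095).

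Secreted antagonists split evenly, as an unadjusted p under 0.05 was reached by 2 of 9 with higher and by 2 with lower signal in old mice. The share was 44.4% in all, against 14.5% of all genes. Sfrp genes encode secreted proteins with a Frizzled-like domain that hold Wnt ligands away from their receptors. Sfrp2 had 1018, 1105, 1033 and 1066 in old mice and 871, 836, 541 and 641 in young mice. The old mice lay close together and above all young mice, which spread widely. The log2 difference was 0.57 (SE 0.157, unadjusted p = 0.00697, adjusted p = 0.164), and it passed with an adjusted p of 0.0481 under the variance prior that follows signal.

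Sfrp4, of the same family, ran the other way, with 561, 590.2, 600.1 and 583 in old mice and 791, 727, 672 and 627 in young mice. The highest old mouse was below the lowest young mouse, by less than the range of the old mice. Its log2 difference was -0.27 (SE 0.086, unadjusted p = 0.0159, adjusted p = 0.222). Sfrp5 measured 352, 376, 364 and 468 in old mice and 306, 293, 374 and 295 in young mice. Young mouse 7 overlapped the old range, and the log2 difference was 0.30 (SE 0.123, unadjusted p = 0.044). A dim probe set of Sfrp5, at a mean signal of 56.2, gave 0.01. Sfrp1 differed by 0.05 on its brightest probe set, and its other 4 probe sets were all positive, 0.17 or more, none at an unadjusted p under 0.05.

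Dickkopf proteins of the Dkk1, Dkk2 and Dkk4 type bind Lrp5 and Lrp6 and keep them from Wnt ligands. Dkk2 gave 374, 340.2, 454 and 464 in old mice and 573, 649.9, 454 and 511 in young mice. The ranges met at young mouse 7, and the log2 difference was -0.42 (SE 0.148, unadjusted p = 0.023). Dkk3, a divergent relative, had 1632, 1618, 1589 and 1700.0 in old mice and 1904, 1995, 1613 and 1862 in young mice. Again only young mouse 7 lay in the old range, and the log2 difference was -0.17 (SE 0.082, unadjusted p = 0.0745). Dkk1 and Dkk4 were dim, with mean signals of 46.5 and 54.4, and differed by -0.07 (SE 0.369) and -0.18 (SE 0.351). Wif1, which binds Wnt ligands directly, was 4327, 5483, 3599 and 4045 in old mice and 3419, 5036, 4452 and 5329 in young mice, and both ages covered the same range. Its log2 difference was -0.06 (SE 0.179).

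In the R-spondin arm, an unadjusted p under 0.05 was reached by 2 of 9 genes with higher and by 1 with lower signal in old mice. The share was 33.3% in all, against 14.5% of all genes. Rspo1 measured 414, 364, 365 and 389 in old mice and 302, 288, 288 and 299 in young mice. The young mice were nearly equal and every old mouse was above them. The mean was 383 ± 23.7 in old and 294 ± 7.46 in young mice (SD, n = 4 each), a fold of 1.30 and a log2 difference of 0.38 (SE 0.069, adjusted p = 0.0702 by limma). It passed with adjusted p of 0.02, 0.0286 and 0.0257 when the dimmer genes were left out or the signal was given a floor of 32 or 64, where 3.64%, 1.32% and 1.39% of the genes tested passed. It stayed above the threshold without any single mouse (0.132 to 0.179). Rspo2, needed for cartilage rings of the trachea and branching of the lung in the mouse embryo, had 98.2, 105, 79.9 and 87.1 in old mice and 53.6, 47.3, 78.1 and 86.5 in young mice. Young mouse 8 overlapped the old range, and the log2 difference was 0.52 (SE 0.209, unadjusted p = 0.0402). Both probe sets of Rspo2 were dim, with mean signals of 76.9 and 65.6, and the dimmer one gave 0.12. Rspo3 differed by -0.29 (SE 0.198) and Rspo4, a dim gene, by -0.50 (SE 0.554).

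Of the R-spondin receptors, Lgr5, a marker of stem cells in the mouse gut and hair follicle, gave 299, 335, 312 and 251 in old mice and 381, 441, 329.9 and 387 in young mice. Old mouse 2 was slightly above young mouse 7, and otherwise the ages were apart. Its log2 difference was -0.36 (SE 0.122, unadjusted p = 0.0185, adjusted p = 0.235). A dim probe set of Lgr5, at a mean signal of 30.6, gave -0.08. Lgr6, a stem cell marker in mouse skin and the brightest probe set of the arm, had 4271, 3922, 4304 and 3845 in old mice and 4733, 5268, 4316 and 4184 in young mice. All old mice were below the young mice except young mouse 8, which lay among them, and the log2 difference was -0.18 (SE 0.093, unadjusted p = 0.0999). Lgr4 was 2198, 1926, 1791 and 1985 in old mice and 1944, 2134, 2025 and 2133 in young mice, which overlap widely, and differed by -0.06 (SE 0.082). The ligases Rnf43 and Znrf3 differed by -0.30 (SE 0.134, unadjusted p = 0.0594) and 0.05 (SE 0.085).

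Beta-catenin and its destruction complex showed no gene at an unadjusted p under 0.05 among 4, and 0 at an adjusted p under 0.05. Ctnnb1, the gene of beta-catenin, measured 15847, 15858, 16851 and 16832 in old mice and 16577, 16785, 16238 and 17327 in young mice. The ranges overlapped, and the log2 difference was -0.03 (SE 0.061). Apc, a scaffold of the complex, had 1638, 1329.8, 1414 and 1364 in old mice and 1237, 1112, 1439 and 1435 in young mice, with a log2 difference of 0.14 (SE 0.114). All 4 probe sets of Apc were above the array median but differed in sign, the dimmer ones giving -0.10, -0.31 and 0.13. Axin2, which beta-catenin induces in many tissues as a brake on its own pathway, ranged from 501 to 618 in old and from 469 to 557 in young mice, a log2 difference of 0.14 (SE 0.093, unadjusted p = 0.165). Axin1 differed by -0.04 (SE 0.105).

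The TCF/LEF factors, which carry beta-catenin to DNA, differed from each other in sign. Lef1 had 203, 151, 199 and 191 in old mice and 82.2, 133, 156 and 107 in young mice. Old mouse 2 fell just under young mouse 7, and the log2 difference was 0.67 (SE 0.207, unadjusted p = 0.0131, adjusted p = 0.207). The mean signal of Lef1, 147, was just below the array median of 151, and its dimmer probe set gave 0.16. Tcf7l2 was 554, 578, 536 and 528 in old mice and 697, 652, 617 and 629 in young mice. No old mouse reached the young range, and the log2 difference was -0.24 (SE 0.069, unadjusted p = 0.00903, adjusted p = 0.176). A second bright probe set of Tcf7l2 gave -0.29, and 2 dim ones gave 0.28 and 0.11. Tcf7l1, which acts mostly as a repressor, had 889, 795, 1048 and 787 in old mice and 939.8, 914, 863 and 1164 in young mice, overlapping, with a log2 difference of -0.14 (SE 0.131). A second probe set of Tcf7l1, nearly as bright, gave -0.30 with every old mouse below every young mouse. Its unadjusted p was 0.0701 by limma in the fit of all probe sets.

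TCF/LEF factors favour the letters CTTTGAT or CTTTGAA, which were looked for on both strands in the same 250 base windows before each start. They were found for 3 members, shown here with 20 bases on each side and the match in capitals, each read along its gene from RefSeq GRCm38.p6.
Wnt5b, chr6:119449431-119449477, minus strand: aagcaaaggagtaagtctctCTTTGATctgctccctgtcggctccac
Wnt11, chr7:98835041-98835087, plus strand: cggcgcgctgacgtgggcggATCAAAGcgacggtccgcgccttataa
Dkk1, chr19:30549587-30549633, minus strand: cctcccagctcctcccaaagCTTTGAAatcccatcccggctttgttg
The matches start 71, 51 and 117 bases before the transcription start. They make up 3 of 45 windows (6.67%), against 7.48% of all windows. The log2 differences of these genes were -0.56, 0.07 and -0.07. A match of letters is not a bound site.

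**Figure D3:**
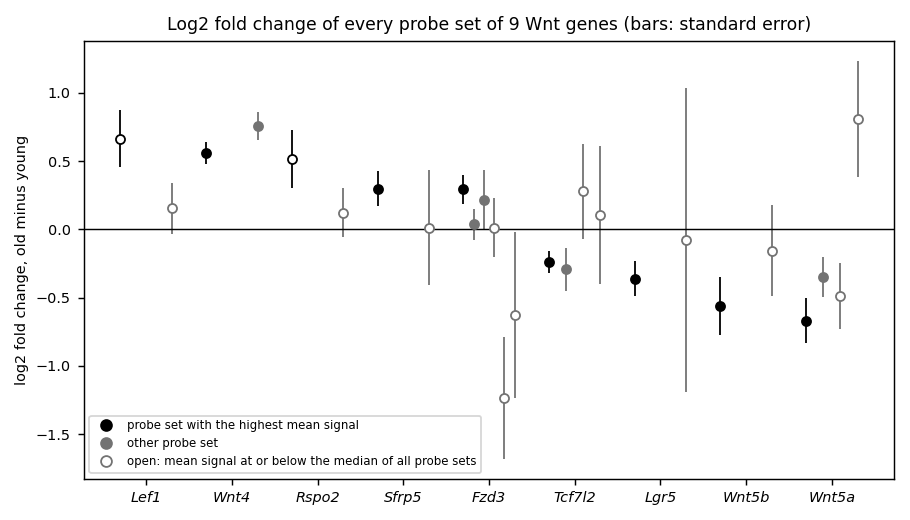
Log2 fold change of old minus young mice for every probe set of the 9 Wnt genes that have several probe sets and reached an unadjusted p under 0.05, with bars for the standard error (4 old and 4 young mice), the brightest probe set of each gene in black at its left. Both probe sets of Wnt4 lie above 0, whereas Fzd3, Tcf7l2 and Wnt5a have dim probe sets (open circles) on the other side of 0 from the brightest.

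How far a difference depends on the probe set could be seen for the 37 members with more than 1. All probe sets of 23 members had the same sign, and those of 14 did not. For the 15 members with several probe sets above the array median, 11 had the same sign among these. Those that did not were Apc, Axin1, Ctnnb1 and Lrp6. None of the 113 probe sets passed an adjusted p under 0.05 in the fit of all probe sets.

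Of the wider pathway, 77 genes that are not members were measured, of 81 listed. Old mice had higher signals for 4 of them and lower signals for 10 at an unadjusted p under 0.05, against 7.23% and 7.29% of all genes, and 0 passed an adjusted p under 0.05. Their median log2 difference was -0.06, with 26 positive and 51 negative. With all probe sets of a gene averaged, 0 were higher and 10 lower.

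Among genes that process or modify the ligand, Notum, a secreted enzyme that strips the lipid from Wnt, was 305, 414, 423 and 339 in old mice and 476, 499, 459.6 and 499 in young mice. All old mice were below all young mice, and the log2 difference was -0.40 (SE 0.118, unadjusted p = 0.0106). Porcn, which attaches that lipid, and Wls, which carries Wnt to the surface, differed by 0.06 and -0.03.

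Extracellular modulators gave 1 higher and 3 lower genes of 20 at an unadjusted p under 0.05 (20% in all, against 14.5% of all genes). Sostdc1, an antagonist that binds Lrp5 and Lrp6, averaged 234 ± 43.5 in old and 380.2 ± 75.1 in young mice (SD, n = 4 each), without overlap, a log2 difference of -0.70 (SE 0.183, unadjusted p = 0.00569 by limma). Gpc3, a cell-surface glypican, differed by -0.43, and Kremen1, a receptor for Dickkopf proteins, by -0.26, both without overlap. Draxin, a secreted guidance cue that can act as a Wnt antagonist, was dim, at 79.2 to 95.1 in old and 58.3 to 77.9 in young mice, and differed by 0.31.

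Transduction genes of the cytoplasm and nucleus gave 3 higher and 3 lower of 38 at an unadjusted p under 0.05. At 15.8% in all, this was near the 14.5% of all genes. Nkd2, a brake that binds Dishevelled, was 361, 273, 362 and 338 in old mice and 266, 217, 229 and 236 in young mice, every old mouse above every young mouse. Its log2 difference was 0.49 (SE 0.115, unadjusted p = 0.00316). Dact3, also a Dishevelled-binding inhibitor, differed by -0.40, and Sox17, which can oppose TCF factors, by -0.33. Amer1, a scaffold of the destruction complex, differed by -0.39. Each of Dact3, Sox17 and Amer1 had every old mouse below every young mouse.

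Planar cell polarity genes gave 0 higher and 3 lower of 16 at an unadjusted p under 0.05 (18.75% in all, against 14.5% of all genes). Prickle1, a core component of that system, measured 239, 185, 233 and 312 in old mice and 374, 352, 343 and 365 in young mice. The highest old mouse was below the lowest young mouse, and the log2 difference was -0.59 (SE 0.149, unadjusted p = 0.00473). Celsr2 and Prickle2, of the same system, differed by -0.37 and -0.23, also without overlap, and the GTPase Rhoa by 0.12.

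Genes widely induced by canonical Wnt signaling were measured for 33 of 36 listed, 7 of them members. Old mice had higher signals for 5 and lower signals for 3 (24.2% in all) at an unadjusted p under 0.05, against 7.23% and 7.29% of all genes (14.5% in all), and 0 passed an adjusted p under 0.05. Without old mouse 1 the split was 3 higher and 5 lower. The median log2 difference was -0.01. Ccn1, a matrix-associated protein and an immediate early gene that many stimuli induce, was 2287, 2888, 1224 and 3887 in old mice and 513, 571, 458 and 846 in young mice. Every old mouse was above every young mouse and the old mice spread over a wide range. Its log2 difference was 2.03 (SE 0.362, unadjusted p = 0.000618, adjusted p = 0.0693). Myc, a growth regulator, averaged 170.0 ± 12.5 in old and 108 ± 19.9 in young mice (SD, n = 4 each), a log2 difference of 0.67 (SE 0.144, adjusted p = 0.104 by limma). Notum, Lef1 and Lgr5, given above, are on this list as well, and Ccnd1, Cd44 and Snai2, the others at that threshold, were named after their values were seen.

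Marker lists of cell types moved with age beside these genes. The summed signal of 15 T cell markers, the cell type in which Lef1 is best known, was 3173 to 3909 in old and 2329.7 to 2841 in young mice, with 7 markers higher and 0 lower at an unadjusted p under 0.05. None of them was at 0 in the old or young group, and their part in the Lef1 result was not tested. The sum of 9 basal epithelial markers, to which bright markers add most, was 21802 to 25291 in old and 17626 to 20794 in young mice. Of these markers 6 were positive and 3 negative, from -0.51 to 2.21, with 5 higher and 0 lower at that threshold. By staining, the authors counted fewer basal cells in a stretch of the surface epithelium of old mice, at an age above that used here. Their count left out gland-like structures beneath the surface, whereas the RNA here came from whole distal trachea and carina. Sums of 9 macrophage and dendritic cell markers were 13094 to 15542 in old and 11153 to 12453 in young mice, and those of 8 B and plasma cell markers were 4585 to 15393 in old and 649 to 1186 in young mice. For none of these sums did the ranges of the ages overlap.

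Stromal lists ran the other way. The sum of 10 fibroblast markers was 76315 to 84321 in old and 96075 to 109401 in young mice, with 4 lower. Smooth muscle markers, 9 in all, summed to 77533 to 89748 in old and 90490.0 to 103856 in young mice, with 5 lower. Both sums were lower in every old mouse, as were Wnt5a, Sfrp4 and Tcf7l2, while Sfrp2 was higher in every old mouse. The part of any of these lists in the Wnt results was not tested. The labelled tissue was borne out by 8 airway epithelium markers, which summed to 33053 to 37006 in old and 32026 to 34017 in young mice, and by 11 cartilage markers, at 27121 to 33693 in old and 22086 to 40916 in young mice. Both ranges overlapped between the ages, as did those of ciliated, secretory and endothelial cell markers. Markers of neighbouring tissues were mixed. Of 7 oesophageal squamous markers 4 were positive and 3 negative, with 1 higher at an unadjusted p under 0.05 and a median log2 difference of 0.10, although their sum, to which bright markers add most, was 1588 to 2630.1 in old and 986 to 1110.3 in young mice. Of 8 skeletal muscle markers 4 were positive and 4 negative, with 2 lower and a median of 0.01, although their sum was 1659.7 to 2388 in old and 2545 to 3288 in young mice.

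**Figure D4:**
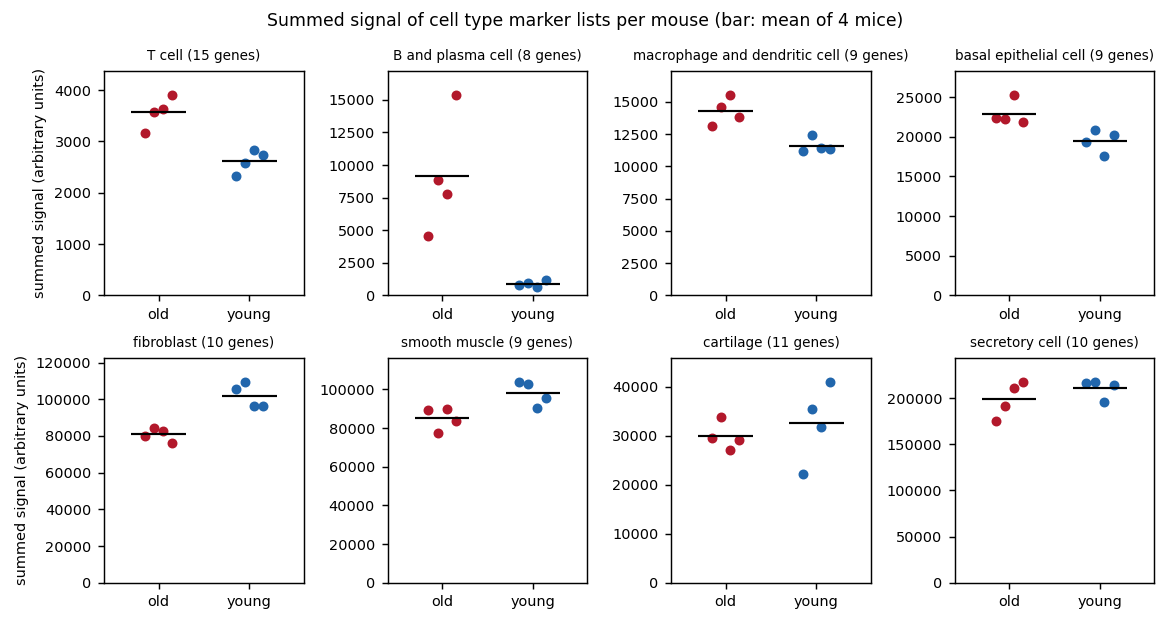
Summed signal of 8 cell type marker lists per mouse in arbitrary units, on axes that start at 0. Points are mice, old on the left and young on the right, and bars are means of 4. Old mice are above all young mice for T cell, B and plasma cell, macrophage and dendritic cell and basal epithelial cell markers, below all young mice for fibroblast and smooth muscle markers, and overlap them for cartilage and secretory cell markers.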

How the data were processed

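Expression was measured on Affymetrix Mouse Genome 430 2.0 arrays, 1 for each of 8 mice. According to the authors, normalization was by robust multichip analysis with software from Partek. The deposited table, however, holds intensity values on a linear scale in which all arrays share 1 trimmed mean (2% cut at each end) of 500.002, so that the summary behind them is not settled. No detection call is given, and signals reach down to 0.106.

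Signals were taken to log2 with no further normalization or filter, after 64 control probe sets were left out of 45101. Of the 45037 that remained, 34945 carry a single gene symbol in the platform annotation, 932 carry more and 9160 carry no symbol. Only those with a single symbol named a gene, and each gene was read from the one with the highest mean log2 signal, with 21 immunoglobulin symbols left out, which gave 18172 genes. Ages were compared with limma 3.58.1 (lmFit, eBayes, two-sided) in R 4.3.3 with Benjamini-Hochberg adjustment over all genes, and the steps were tested on simulated data. Nothing in the labels says more of how the mice were kept or processed together, so p-values measure the spread between these animals.

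Signals of all 8 mice are given for members at an unadjusted p under 0.05 or without overlap and for the 2 brightest members of each role, and up to 4 genes of each other list are named by smallest p. The members and lists were chosen with earlier results of these data known. Alternatives left out each mouse, and changed the test, the variance prior, array weights, normalization, centring, floors, dim genes, probe sets and a block of mouse numbers. Promoter sequences are from a RefSeq table of GRCm38.p6, and neighbouring genes were found from gene positions of the RefSeq annotation.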

Additional observations from a re-analysis of the deposited data

Results flagged for a closer look

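In 4 of the 114 sets of 4 mice (57 genes at each age), 1 mouse stood apart from the other members of its age by more than 0.829 of the whole range, and chance gives about 1 in 20 such sets. Sfrp1 was 689.7 in old mouse 5, the other old mice being at 754 to 758. Lrp6 was 2377 in young mouse 8, against 2108 to 2132 in the other young mice. Wnt1, a dim gene, was 35.8 in young mouse 8 and 21.7 to 23.1 in the others. Wnt16, also dim, was 47.8 in young mouse 7 and 96.8 to 107 in the others. None of these 4 genes reached an unadjusted p under 0.05 between the ages.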

How the results depend on the processing

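The count of members at an adjusted p under 0.05 was 1, and 0 to 0 when any mouse was left out. It was 3 with a trended and robust variance prior, 3 among the 41 members of the brighter part of the probe sets, 2 with a floor of 32, 2 with a floor of 64 and 0 when the 4 lower mouse numbers were set against the 4 higher as a block, where Wnt4 had an adjusted p of 0.0501. Calls over all genes moved with these settings, being 94 of 18172 as reported, 8 to 42 with a mouse left out, 473 with that prior, 432 of 11865 in the brighter part, 240 and 253 with the floors of 32 and 64, and 49 with the block. The added calls were Rspo1, Wnt5a and Sfrp2. Leaving out a mouse put the count without overlap between 7 and 16 and the median log2 difference between -0.0585 and -0.0124, the last without young mouse 3. The count at an unadjusted p under 0.05 stayed between 11 and 20. Of 282 pairs of these 15 members and an alternative, 281 kept their sign and 249 an unadjusted p under 0.05. The exception was Fzd3, at -0.22 once its probe sets were averaged, as 2 dim ones are negative. No paired analysis was possible because the old and young mice share no numbers. Signals near the lower end of the arrays carry no detection call. The 16 members at or below the median signal had a median SD of 0.55 on the log2 scale. This limits what can be seen for these members, among them Wnt3, Wnt16, Lrp5, Dkk1, Rspo2, Rspo4 and Lef1.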
